A study of Homo sapiens with 32 samples.

Results

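H3K27ac was followed at 44 genes whose products copy the genome in S phase, from the origin recognition subunits ORC1 and ORC6 through the MCM helicase, the replicative polymerases, the sliding clamp and its loader to the enzymes that supply nucleotides and the factors that restore chromatin behind the fork. A deposited region was given to a gene where it held or lay within 10 kb of one of its protein-coding start sites (GENCODE, hg19) and no other gene had a nearer one, and for each gene the region at the start of its canonical transcript was taken first. All 44 genes had such a region and in each of the 44 it covered the canonical start, among 14968 protein-coding genes with a start-site region in 13283 distinct regions and 92092 regions tested in all. With the regions farther from the canonical starts, the 44 genes held 85 regions.

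The cells were SK-N-BE(2)C, an established human neuroblastoma line of the adrenergic type with amplified MYCN, so every value comes from 1 line. Treatment lasted 5 days, with DMSO as the solvent control, or with 1 µM palbociclib (PB), an inhibitor of the kinases CDK4 and CDK6, or with retinoic acid (RA), a ligand of nuclear receptors that drives differentiation, or with both (PB+RA). There were 4 ChIP libraries per group, each with its own input, and the methods of the study describe biological replicates as different passages plated in independent experiments. The comparisons ask how each drug alone, and both together, changed the acetylation of these start sites.

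Replication genes are read mainly at the passage from G1 into S phase. In G1 the retinoblastoma protein holds E2F factors inactive at many of their promoters, cyclin D with CDK4 or CDK6 starts the phosphorylation that releases them, and E2F then drives the genes together. Acetylation of lysine 27 of histone H3 marks active promoters and enhancers, so at a start site it reports the state of the promoter and not the amount of RNA or protein. In a bulk culture, fewer cells that carry the mark and less mark in each cell cannot be told apart.

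The promoters themselves were read from the GRCh37 reference in windows of 300 bases, from 250 before to 50 after the canonical start. Forms of the E2F site were searched as the word TTCCCGC, then the word TTGGCGC, then the word TTCGCGC and finally the word TTGCCGC. At least 1 of them was found on either strand in 35 of 44 windows (79.5%), against 19.7% of the windows of all 14968 genes. At least 2 such matches stood in 15 of the 44 windows and in 2.93% of all windows. CCAAT, the letters bound by NF-Y, stood in 27 of 44 (61.4%, against 35.3% of all). The E-box CACGTG stood in 6 of 44 (13.6%, against 9.58%), the CHR letters TTTGAA or TTCGAA in 3 of 44 (6.82%, against 10.3%) and the GC box GGGCGG in 30 of 44 (68.2%, against 71.3%). Matches of different motifs were counted separately where they overlapped, and a match is a description of the letters, not a bound site.

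Shown here, 5′ to 3′ on the strand of the gene and with E2F letters in capitals, are the 3 promoters where the authors' mean concentration fell most from DMSO to PB+RA, those of CHAF1B (chr21:37757440-37757739, plus strand), TYMS (chr18:657403-657702, plus strand) and GINS2 (chr16:85722511-85722810, minus strand), and then the pair where it moved least, those of GINS3 (chr16:58426125-58426424, plus strand) and ORC6 (chr16:46723321-46723620, plus strand).
CHAF1B: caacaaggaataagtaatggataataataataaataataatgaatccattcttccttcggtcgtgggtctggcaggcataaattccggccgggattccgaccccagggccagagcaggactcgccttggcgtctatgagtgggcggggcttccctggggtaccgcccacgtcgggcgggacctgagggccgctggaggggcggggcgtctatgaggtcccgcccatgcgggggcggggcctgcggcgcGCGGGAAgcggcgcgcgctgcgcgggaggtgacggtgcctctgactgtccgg
TYMS: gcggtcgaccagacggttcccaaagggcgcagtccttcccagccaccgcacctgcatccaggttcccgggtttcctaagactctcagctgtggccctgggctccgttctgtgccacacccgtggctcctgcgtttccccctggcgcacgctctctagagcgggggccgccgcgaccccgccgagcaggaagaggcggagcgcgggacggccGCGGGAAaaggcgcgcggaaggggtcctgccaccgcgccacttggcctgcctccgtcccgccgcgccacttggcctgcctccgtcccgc
GINS2: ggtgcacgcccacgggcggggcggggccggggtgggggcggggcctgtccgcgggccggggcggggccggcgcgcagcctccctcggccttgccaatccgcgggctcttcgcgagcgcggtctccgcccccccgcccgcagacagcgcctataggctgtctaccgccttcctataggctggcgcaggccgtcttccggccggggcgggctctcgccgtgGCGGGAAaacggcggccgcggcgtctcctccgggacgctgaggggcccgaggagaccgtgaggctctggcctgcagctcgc
GINS3: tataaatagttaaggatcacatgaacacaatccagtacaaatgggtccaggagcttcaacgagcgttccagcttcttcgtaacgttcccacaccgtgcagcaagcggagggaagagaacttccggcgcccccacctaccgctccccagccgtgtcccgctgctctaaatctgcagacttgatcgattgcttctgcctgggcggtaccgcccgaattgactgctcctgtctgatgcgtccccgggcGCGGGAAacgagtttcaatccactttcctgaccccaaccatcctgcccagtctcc
ORC6: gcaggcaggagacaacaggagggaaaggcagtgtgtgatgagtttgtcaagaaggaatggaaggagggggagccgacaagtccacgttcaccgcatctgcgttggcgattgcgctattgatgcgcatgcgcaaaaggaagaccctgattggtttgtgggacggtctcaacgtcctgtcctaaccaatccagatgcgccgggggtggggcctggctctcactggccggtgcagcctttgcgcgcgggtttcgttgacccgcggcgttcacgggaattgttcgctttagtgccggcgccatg

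CHAF1B, TYMS, GINS2 and GINS3 all carried the same 7 letters, GCGGGAA, once. They stood from -2 to 5 around the start in CHAF1B, from -39 to -33 in TYMS, from -31 to -25 in GINS2 and from -5 to 2 in GINS3, and the first 3 of these promoters had the largest falls of the concentration and the last almost none. ORC6 held no E2F match and 2 CCAAT matches. Over the members, the median difference of the authors' mean concentration from DMSO to PB+RA was -0.80 for the 35 with an E2F match and -0.71 for the 9 without, and from DMSO to PB it was -0.72 and -0.50. The split by the GC box was wider, at -0.89 (30 with) and -0.60 (14 without), and -0.75 and -0.43 with PB. By the CHR letters it was turned, at -0.73 (3 with) and -0.80 (41 without). Over all genes the PB medians were -0.46 with and -0.40 without an E2F match, and -0.47 and -0.26 for the GC box. No split was tested.

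Peak lists held between 64516 and 104392 broad peaks per library, and the read depth behind them is unknown here. Per library, the value used for a region was the mean fold enrichment over input across its bases, as log2, relative to the median of the 26499 regions with a peak in every library, and it is called relative enrichment below. All 44 start-site regions had a peak in 16 of 16 libraries, as did 77.4% of all start-site regions. DMSO replicate 3 stood apart, with the fewest peaks of all libraries and the highest median over the members, 1.49 against 0.93 to 1.04 in the other DMSO libraries. Replicates 3 and 4 also lay above replicates 1 and 2 in the members' median in every group, so values are given with these sets apart where they differ. Of 16 markers of adrenergic neuroblastoma, 15 had a start-site region and all 15 had a peak in every library, while of 8 immune markers 5 had a region and only CD14 a peak in every library, and of 7 endothelial markers 2 had a region and only VWF a peak in every library. Of 8 fibroblast markers, 6 had a peak in every library (COL1A1, COL3A1, DCN, LUM, PDGFRA and PDGFRB), and their summed log2 concentration went from 12.6 in DMSO to 11.9 with PB and 12.4 with RA, and 11.7 with PB+RA. That of the adrenergic markers went from 16.5 to 16.3, 15.8 and 16.2. The part of either in the differences below was not tested.

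Acetylation at the replication genes was lower with PB, and lower still with PB+RA, and with RA alone the differences were smallest. As the authors' mean log2 concentration, which is normalised over libraries and has no replicate values of its own, the median difference of the 44 start sites was -0.67 with PB, with 43 of 44 below DMSO and a range from -2.12 to 0.10. With RA the median difference was -0.44, all 44 were below DMSO, and the range was narrow, from -0.69 to -0.10. With PB+RA the median was -0.80, with 43 of 44 below DMSO, 17 of them by more than 1. The medians over all start-site regions were -0.41, -0.17 and -0.19, so most of the genome's start sites also had lower concentrations than in DMSO, by less. The order DMSO, RA, PB, PB+RA from high to low was found at 27 of the 44 (61.4%) and at 11.9% of all start-site regions. PB+RA was the lowest of the 4 groups at 30 of the 44 (68.2%, against 18.8% of all).

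**Figure D1:**
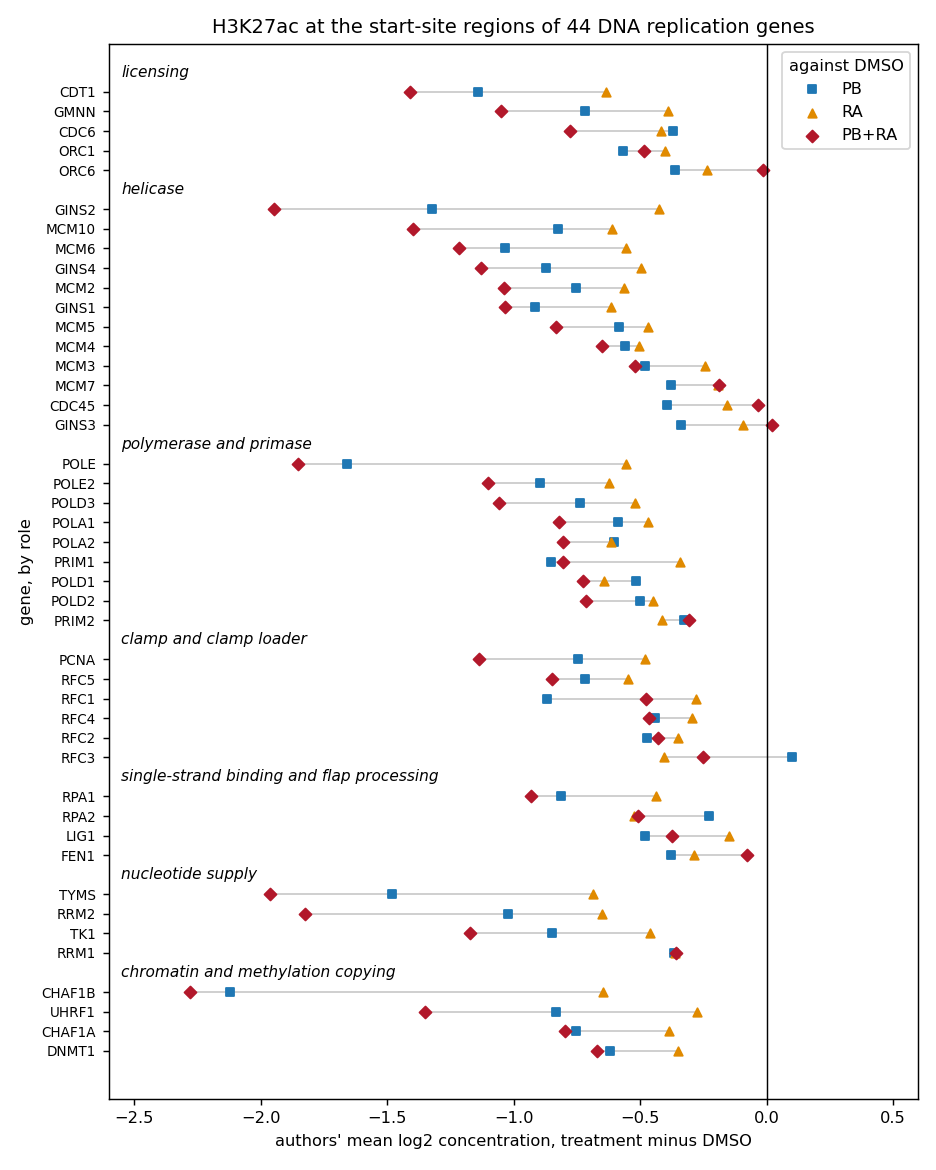
Difference of the authors' mean log2 H3K27ac concentration from DMSO (x axis) at the start-site region of each of the 44 genes (y axis, grouped by role), with squares for PB, triangles for RA and diamonds for PB+RA and grey lines that join the 3 values of a gene. Only RFC3 with PB and GINS3 with PB+RA lie to the right of 0, and CHAF1B lies farthest to the left, at -2.28 with PB+RA.

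Per library, with limma and Benjamini-Hochberg adjustment over the 92092 regions, a region was called at an adjusted p under 0.05 and a log2 difference beyond 0.5. With PB, 13 of 44 members decreased, against 10.7% of all start-site regions and 3.32% of all regions, and 0 increased (1.26% of start-site regions and 6.05% of all regions did). With RA, 2 of 44 decreased (4.18% of start-site regions, 5.86% of all regions) and 0 increased (4.66% and 10.2%). With PB+RA, 30 of 44 decreased (18.3% of start-site regions, 11.3% of all regions) and 0 increased (8.17% and 18.3%). The counts at an unadjusted p under 0.05 (limma) were 22, 8 and 32 of 44. Over the 13283 start-site regions they were 3921, 2466 and 5045, so the share with RA was near that of all start-site regions. Without DMSO replicate 3, the decreased members numbered 11, 0 and 26. In that fit 8.46% of start-site regions decreased and 2.14% increased with PB, and 16.2% and 11.4% with PB+RA. With RA, 5948 of all 92092 regions decreased in it. The fitted differences of the members had medians of -0.45, -0.24 and -0.71, against -0.22, -0.03 and -0.15 over all start-site regions. The split over all start-site regions depended on the scaling, and that over the members did not turn. With centring done separately in 10 GC classes, 3.32% of start-site regions decreased and 2.05% increased with PB, and 9.71% and 12.5% with PB+RA, while 9 and 28 members decreased and 0 increased. With centring on the start-site regions themselves, 5.58% decreased and 5.69% increased with PB, and 12.7% and 15.1% with PB+RA, while 7 and 22 members decreased and 0 increased, with medians of -0.21 and -0.53. The 3 comparisons share the DMSO libraries and are not independent of each other.

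**Figure D2:**
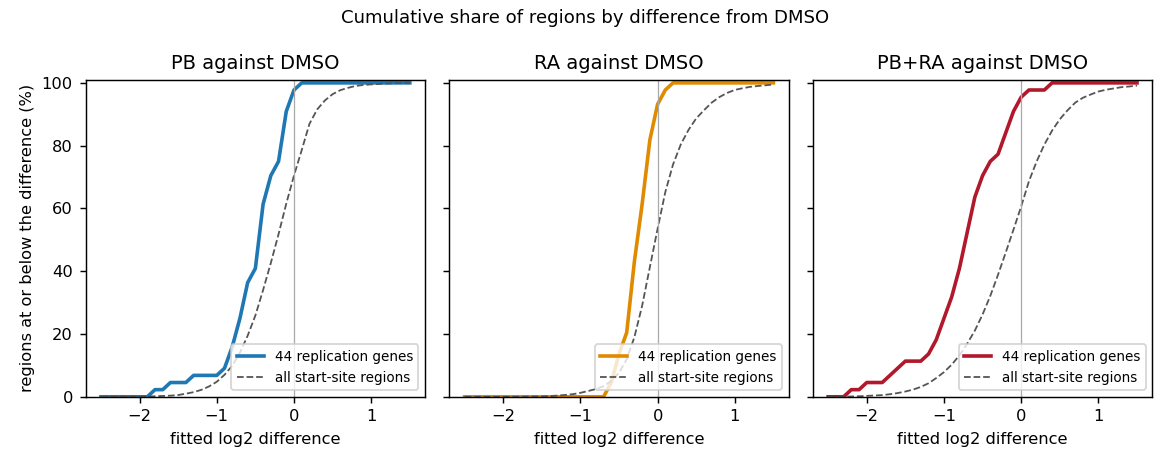
Percent of regions (y axis) whose fitted log2 difference from DMSO is at or below the value on the x axis, for PB, RA and PB+RA, with a thick line for the 44 replication genes and a dashed line for the start-site regions of all protein-coding genes. The members lie to the left of all start-site regions over most of each range, with the widest gap for PB+RA, where the medians are -0.71 and -0.15.

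Across libraries, the members' median relative enrichment was 0.93 to 1.49 in DMSO, 0.73 to 0.97 with RA, 0.43 to 0.72 with PB and 0.10 to 0.61 with PB+RA. The PB and PB+RA libraries did not overlap the DMSO libraries, and 1 RA library lay within the DMSO range. Over all start-site regions the same medians were 0.54 to 1.00 in DMSO, 0.55 to 0.77 with RA, 0.44 to 0.53 with PB and 0.39 to 0.77 with PB+RA, with overlap in RA and PB+RA. Taken gene by gene, all 4 PB libraries lay below all 4 DMSO libraries at 17 of 44 members (14.9% of all start-site regions), all 4 RA libraries at 6 (6.83%) and all 4 PB+RA libraries at 25 (14.5%). In replicates 1 and 2 alone the median member difference from DMSO was -0.44 with PB and -0.17 with RA, and -0.77 with PB+RA, and in replicates 3 and 4 alone it was -0.42, -0.33 and -0.68. The median difference with PB was therefore nearly the same in both sets, but not the difference of every member. It was -1.10 and -2.59 at POLE, and -1.02 and -0.30 at PCNA.

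**Figure D3:**
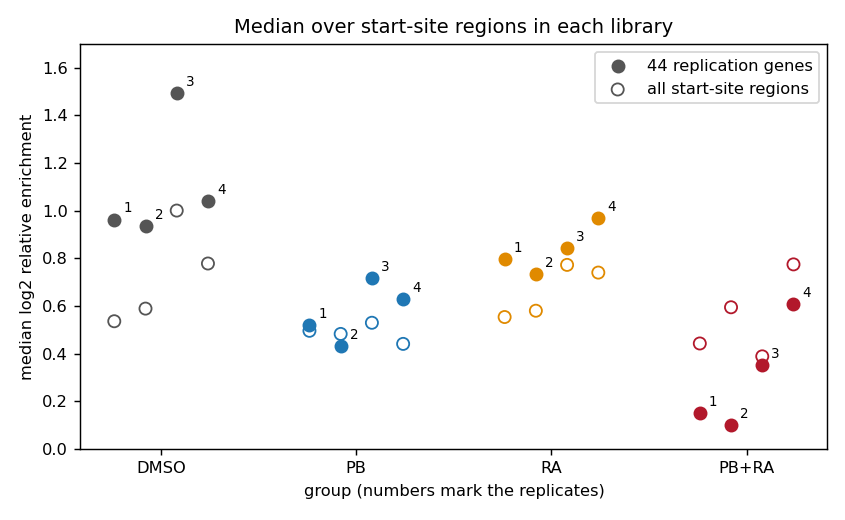
Median log2 relative enrichment (y axis) over the 44 replication genes (filled circles) and over all start-site regions (open circles) in each of the 16 libraries, by group (x axis) and with the replicate number beside each filled circle. In DMSO the replication genes lie above all start-site regions in every library, and in PB+RA they lie below them in every library.

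Licensing loads the helicase onto origins before S phase. Of its 5 members, 1 decreased with PB, 0 with RA (limma, 0 at an unadjusted p under 0.05) and 3 with PB+RA. CDT1, which brings the MCM ring to the origin, had relative enrichments of 1.47, 1.45, 1.45 and 1.31 in DMSO, 0.77, 0.89, 0.30 and 0.18 with PB, 1.12, 1.02, 1.12 and 1.11 with RA and 0.34, 0.41, -0.35 and 0.72 with PB+RA. All 3 treated groups lay wholly below DMSO, and the RA libraries stood close together between DMSO and the others. The difference from DMSO was -0.88 (SE 0.20, adjusted p = 0.00587) with PB and -1.14 (SE 0.20, adjusted p = 9.43e-05) with PB+RA, and was not called with RA (-0.32, adjusted p = 0.286). GMNN, the inhibitor of CDT1, differed by -0.92 with PB+RA (adjusted p = 9.25e-04) and CDC6, the other MCM loader, by -0.67 (adjusted p = 0.0204), and both were called with PB+RA alone among the treatments. CDC6 was not called without DMSO replicate 3 or 4 or PB+RA replicate 1 or 2, with differences from -0.61 to -0.53. ORC1, the largest subunit of the origin recognition complex, was not called in any group. ORC6, its smallest subunit, had 1.16, 1.11, 1.69 and 1.27 in DMSO, 1.22, 1.18, 1.24 and 1.09 with PB, 1.18, 1.29, 1.42 and 1.22 with RA and 1.43, 1.59, 1.60 and 1.89 with PB+RA. Its PB+RA values overlapped DMSO only through DMSO replicate 3 and lay above every PB and RA library, but the difference from DMSO was not called (0.31, SE 0.17, adjusted p = 0.146). The regions of CDT1, ORC1 and ORC6 also hold the starts of APRT, PRPF38A and VPS35, so their acetylation cannot be given to 1 gene.

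The replicative helicase is the ring of MCM2 to MCM7 with CDC45 and the 4 GINS subunits, and MCM10 helps to start it. Of these 12 members, 2 decreased with PB, 0 with RA (limma, 2 at an unadjusted p under 0.05) and 9 with PB+RA. GINS2 had 0.48, 0.10, 0.10 and 0.67 in DMSO, -0.98, -0.32, -0.34 and -0.90 with PB, -0.52, -0.21, 0.13 and -0.12 with RA and -1.65, -1.20, -1.33 and -0.99 with PB+RA. The 4 PB+RA libraries lay below all others, and the PB libraries below all DMSO libraries. GINS2 differed from DMSO by -0.97 (SE 0.21, adjusted p = 0.00458) with PB and by -1.63 (SE 0.21, adjusted p = 2.13e-06) with PB+RA. MCM6, a subunit of the ring, was the other member called with PB (-0.85, adjusted p = 0.0177, but -0.55 and not called without DMSO replicate 3) and was also called with PB+RA (-1.08). MCM2, MCM3, MCM4, MCM5, MCM10, GINS1 and GINS4 were called with PB+RA alone among the treatments, with differences from -0.51 for MCM3 to -1.22 for MCM10. Of these 7, MCM3 was not called without any 1 of 5 libraries (DMSO replicates 1, 3 and 4, PB+RA replicates 1 and 2), GINS4 without any 1 of 4 (DMSO replicates 2 and 4, PB+RA replicates 1 and 2) and MCM5 without DMSO replicate 4, with differences from -0.64 to -0.37. MCM7, CDC45 and GINS3 were not called in any group.

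GINS3 and CDC45 belong to the same active helicase as GINS2, and their start sites were among those with the smallest change. GINS3 had 0.23, 0.73, 1.03 and 0.61 in DMSO, 0.70, 0.13, 0.71 and 0.24 with PB, 0.50, 0.55, 0.71 and 0.93 with RA and 0.80, 0.91, 0.87 and 0.39 with PB+RA. All 4 groups overlapped, and the PB+RA difference was 0.09 (SE 0.20, adjusted p = 0.773). CDC45, whose region also covers the start of UFD1, had 1.17, 1.15, 2.02 and 1.36 in DMSO, 1.29, 1.05, 1.25 and 1.32 with PB, 1.16, 1.45, 1.43 and 1.29 with RA and 1.31, 1.32, 1.61 and 1.33 with PB+RA. Those groups overlapped as well, with a PB+RA difference of -0.03 (SE 0.18, adjusted p = 0.944). MCM7, whose region is shared with AP4M1 and COPS6, differed by -0.05 (adjusted p = 0.859).

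**Figure D4:**
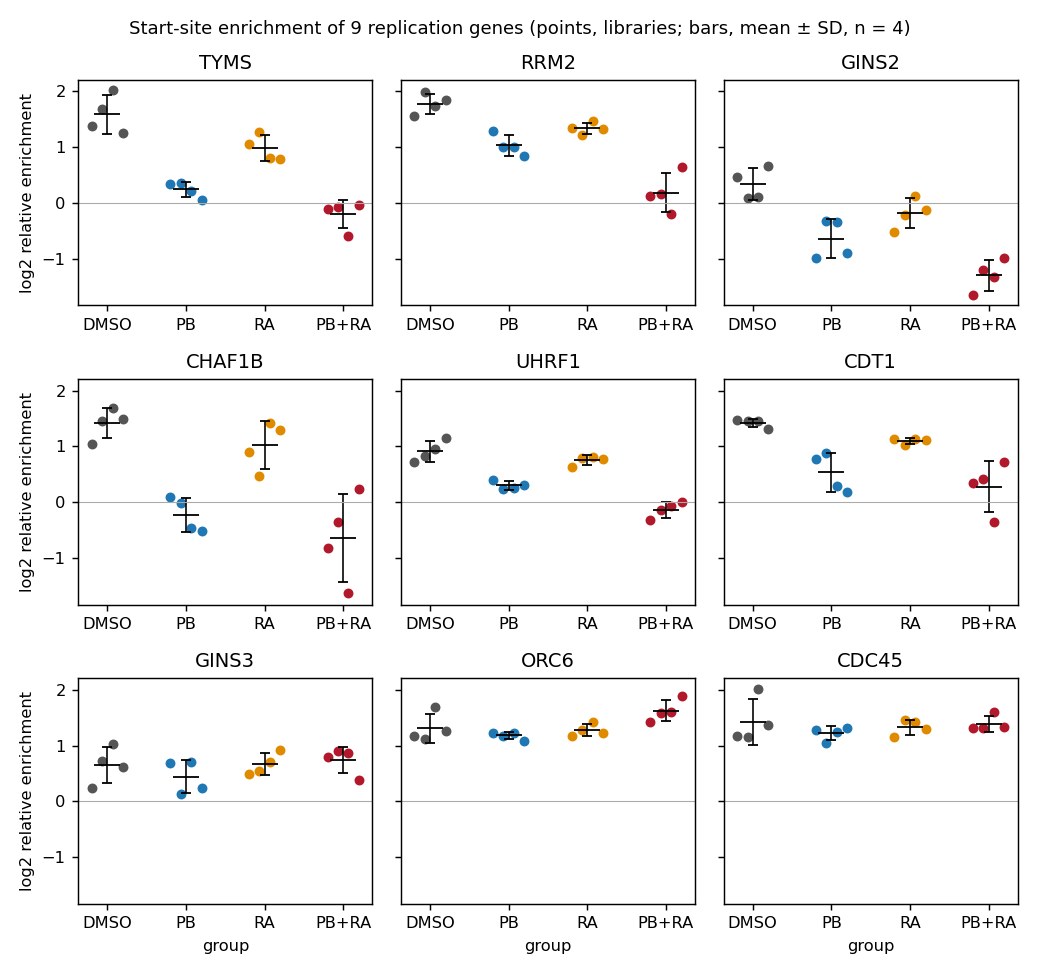
Log2 relative enrichment (y axis) of each library (points, in replicate order from left to right) in the 4 groups (x axis) at 9 start-site regions, with black bars for the mean and SD of 4 libraries. The first 6 genes are lowest in PB+RA, and the PB+RA libraries above the DMSO mean number 4 in ORC6, 3 in GINS3 and 1 in CDC45.

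Polymerase alpha with primase lays the primers, and polymerases delta and epsilon extend the strands. Of these 9 members, 2 decreased with PB and 1 with RA, and 8 decreased with PB+RA. POLE, the catalytic subunit of polymerase epsilon, had 2.08, 1.92, 2.47 and 1.86 in DMSO, 0.95, 0.84, -0.40 and -0.44 with PB, 1.13, 1.31, 1.69 and 1.76 with RA and 0.31, 0.57, -1.47 and -0.14 with PB+RA. Every treated library lay below every DMSO library, and within PB and PB+RA replicates 3 and 4 lay well below replicates 1 and 2. POLE differed from DMSO by -1.84 (SE 0.39, adjusted p = 0.00664) with PB and by -2.26 (SE 0.39, adjusted p = 2.90e-04) with PB+RA, the largest fitted fall among the members. That PB+RA difference was -1.56 in replicates 1 and 2 and -2.97 in replicates 3 and 4, and its region is shared with the start of PXMP2. POLE2, the second subunit of polymerase epsilon, was also called with PB (-0.88, adjusted p = 0.0141), but not without DMSO replicate 2 (-0.58). POLD1, the catalytic subunit of polymerase delta, was the member of this group called with RA (-0.58, adjusted p = 0.0448), and that call was lost without any 1 of 8 libraries (-0.64 to -0.49). The 8 members called with PB+RA differed by -0.59 to -2.26, and of them POLA1 was not called without DMSO replicate 3 or PB+RA replicate 1 (-0.47 and -0.48) and PRIM1 without DMSO replicate 3 or 4 or PB+RA replicate 1 or 2 (-0.64 to -0.56). PRIM2, the large primase subunit, was the 1 of 9 not called. PRIM2 had 0.10, 0.14, 1.61 and 0.67 in DMSO, -0.18, -0.04, 1.04 and 0.96 with PB, -0.09, 0.04, 0.56 and 0.75 with RA and -0.31, -0.15, 0.62 and 0.79 with PB+RA. Replicates 3 and 4 lay above replicates 1 and 2 in every group, by more than the difference between PB+RA and DMSO (PB+RA minus DMSO -0.39, SE 0.35, adjusted p = 0.415).

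The sliding clamp PCNA holds the polymerases on DNA, and replication factor C loads it. Of these 6 members, 1 decreased with PB (RFC1, the large subunit of the loader), 0 with RA (limma, 1 at an unadjusted p under 0.05) and 2 with PB+RA. PCNA had 0.80, 0.73, 1.72 and 0.86 in DMSO, -0.22, -0.29, 1.22 and 0.76 with PB, 0.32, 0.61, 0.84 and 0.99 with RA and -0.66, -0.58, 0.34 and 0.33 with PB+RA. The PB+RA libraries lay below all DMSO libraries, whereas the PB libraries split into low values for replicates 1 and 2 and high values for replicates 3 and 4. PCNA differed by -1.17 with PB+RA (SE 0.32, adjusted p = 0.00850), and by -0.66 with PB, which was not called (adjusted p = 0.208). Within replicates 1 and 2 the PB difference was -1.02, and within replicates 3 and 4 it was -0.30. RFC5 was the other member called with PB+RA (-0.72, adjusted p = 0.0164), though not without DMSO replicate 2 or PB+RA replicate 1 (-0.57 and -0.54). RFC1 differed by -0.73 with PB (adjusted p = 0.0281), a call that was lost without any 1 of DMSO replicates 3 and 4 and PB replicates 1, 2 and 3 (-0.75 to -0.52). RFC3 had 1.20, 1.16, 1.14 and 0.80 in DMSO, 1.28, 1.03, 1.18 and 1.09 with PB, 0.32, 0.51, 0.84 and 0.88 with RA and 0.17, 0.62, 1.37 and 1.23 with PB+RA. It was the member without a lower value in PB (0.07, SE 0.21, adjusted p = 0.835), and the RA libraries were its lowest group on average (-0.44, adjusted p = 0.165).

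Single-stranded DNA at the fork is covered by replication protein A, and the flap nuclease FEN1 and the ligase LIG1 finish the lagging strand. RPA1 decreased with PB and with PB+RA and was the 1 of 4 called in any group. It had 0.61, 0.28, 1.06 and 1.03 in DMSO, -0.03, 0.00, 0.16 and -0.01 with PB, -0.03, 0.08, 0.47 and 0.45 with RA and -0.38, -0.22, 0.05 and 0.16 with PB+RA. All PB and PB+RA libraries lay below all DMSO libraries, and RA overlapped DMSO. Its differences were -0.72 (SE 0.20, adjusted p = 0.0202) with PB and -0.84 (SE 0.20, adjusted p = 0.00171) with PB+RA, in a region shared with SMYD4, and the PB call was lost without DMSO replicate 3 or DMSO replicate 4 (-0.62 to -0.61). FEN1, in a region shared with TMEM258, had 0.88, 0.93, 1.92 and 1.28 in DMSO, 0.95, 0.80, 1.00 and 0.85 with PB, 1.36, 0.95, 0.92 and 1.09 with RA and 0.95, 0.92, 1.38 and 1.14 with PB+RA. Its groups overlapped throughout (PB+RA minus DMSO -0.15, SE 0.20, adjusted p = 0.594), and DMSO replicate 3 was its highest library. RPA2 and LIG1 were not called either (-0.26 and -0.43 with PB+RA).

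Nucleotide supply held 3 decreased members of 4 with PB and 1 with RA, and 3 with PB+RA. TYMS, thymidylate synthase, had 1.39, 1.69, 2.03 and 1.26 in DMSO, 0.34, 0.36, 0.21 and 0.06 with PB, 1.06, 1.27, 0.80 and 0.79 with RA and -0.10, -0.08, -0.58 and -0.04 with PB+RA. The groups stood in steps, with PB+RA below every PB library and PB below every RA library, while 1 RA library overlapped DMSO. TYMS differed from DMSO by -1.35 (SE 0.19, adjusted p = 9.72e-05) with PB, by -0.61 (SE 0.19, adjusted p = 0.0279) with RA and by -1.79 (SE 0.19, adjusted p = 9.87e-08) with PB+RA, the smallest adjusted p of the members. TYMS and POLD1 were the 2 members called with RA. Neither was called without DMSO replicate 3, when the count of members was 0, or without DMSO replicate 2, when RPA1 alone was called. The count was 1 without DMSO replicate 4, PB replicate 1, PB+RA replicate 2 or any 1 of the 4 RA libraries. With the replicate number as a block, 4 members decreased with RA, TYMS, POLD1, MCM10 and RPA1, against 5.70% of all start-site regions. RRM2, the S-phase subunit of ribonucleotide reductase, had 1.56, 1.98, 1.74 and 1.85 in DMSO, 1.30, 1.00, 1.01 and 0.84 with PB, 1.35, 1.22, 1.47 and 1.33 with RA and 0.13, 0.16, -0.19 and 0.64 with PB+RA. Each treated group lay wholly below DMSO, and PB+RA lay wholly below PB and RA. RRM2 differed from DMSO by -0.75 (SE 0.18, adjusted p = 0.00884) with PB and by -1.60 (SE 0.18, adjusted p = 2.21e-07) with PB+RA, and its RA difference was not called (-0.44, adjusted p = 0.0970). TK1, thymidine kinase, decreased with PB (-0.66, adjusted p = 0.0470) and PB+RA (-0.93, adjusted p = 0.00146), in a region shared with AFMID. Its PB call was lost without any 1 of 11 libraries, with differences from -0.72 to -0.57. RRM1, the large subunit that pairs with RRM2, had 0.95, 0.84, 1.68 and 1.01 in DMSO, 0.95, 0.75, 1.06 and 1.07 with PB, 0.95, 1.01, 1.07 and 0.96 with RA and 0.69, 0.88, 0.92 and 1.36 with PB+RA. Its groups overlapped, with DMSO replicate 3 above all other libraries, and it was not called with PB+RA (-0.16, SE 0.19, adjusted p = 0.562). Both subunits are needed for the enzyme, and 1 start site fell while the other was not called.

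Behind the fork, chromatin assembly factor 1 lays down new histones and UHRF1 with DNMT1 copies DNA methylation. Of these 4 members, 3 decreased with PB, 0 with RA (limma, 0 at an unadjusted p under 0.05) and 4 with PB+RA. CHAF1B, a subunit of chromatin assembly factor 1, had 1.04, 1.45, 1.69 and 1.50 in DMSO, 0.09, -0.02, -0.46 and -0.52 with PB, 0.90, 0.47, 1.42 and 1.29 with RA and -0.82, -0.36, -1.64 and 0.24 with PB+RA. The PB and PB+RA libraries lay below all DMSO and RA libraries, RA overlapped DMSO, and PB+RA had the widest spread (SD 0.79). CHAF1B differed from DMSO by -1.65 (SE 0.29, adjusted p = 9.33e-04) with PB and by -2.06 (SE 0.29, adjusted p = 9.78e-06) with PB+RA. CHAF1A, its partner, differed from DMSO by -0.66 with PB (adjusted p = 0.0129) and by -0.75 with PB+RA (adjusted p = 0.00126), in a region shared with SH3GL1.

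UHRF1, which reads methylated DNA and recruits DNMT1, had 0.71, 0.82, 0.95 and 1.16 in DMSO, 0.40, 0.24, 0.25 and 0.31 with PB, 0.62, 0.80, 0.82 and 0.78 with RA and -0.33, -0.15, -0.07 and 0.01 with PB+RA. PB lay wholly below DMSO and RA, PB+RA lay wholly below PB, and RA overlapped DMSO. UHRF1 differed from DMSO by -0.61 (SE 0.16, adjusted p = 0.0177) with PB, a call lost without DMSO replicate 4 (-0.53), and by -1.05 (SE 0.16, adjusted p = 2.39e-05) with PB+RA. DNMT1, the maintenance methyltransferase, had 0.44, 0.83, 0.11 and 0.78 in DMSO, 0.15, 0.20, 0.05 and 0.06 with PB, 0.61, 0.40, 0.04 and 0.11 with RA and -0.12, 0.03, -0.25 and -0.03 with PB+RA. The PB+RA libraries lay below all others, though DMSO replicate 3 was close to them. DNMT1 was called with PB+RA alone among the treatments (-0.63, SE 0.19, adjusted p = 0.0111), and was not called without DMSO replicate 2 (-0.54).

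Of the 44 start sites, 12 were lower with PB+RA than with RA, and 5 were lower with PB+RA than with PB. PB+RA against RA, which asks what PB adds, put 25 of 44 at an unadjusted p under 0.05 (limma), and 4004 of the 13283 start-site regions. It gave 12 decreased members of 44 (10.1% of all start-site regions) and 0 increased (3.12%). With the replicate number as a block the count was 19 (14.8% of all start-site regions). The 12 were CDT1, GMNN, MCM6, GINS2, POLD2, POLE, RRM2, TYMS, TK1, UHRF1, CHAF1A and CHAF1B, with differences from -0.55 for CHAF1A to -1.66 for CHAF1B. Of the 12, MCM6 and POLD2 lost the call without any 1 of 6 libraries (RA replicates 1, 2 and 4, PB+RA replicates 1, 2 and 3, with differences from -0.73 to -0.47), CHAF1A without any 1 of 5 (RA replicates 2 and 3, PB+RA replicates 1, 2 and 3, from -0.57 to -0.48) and TK1 without PB+RA replicate 1 (-0.65). PB+RA against PB, which asks what RA adds, put 10 of 44 at an unadjusted p under 0.05 (limma), and 2337 of the 13283 start-site regions. It gave 5 decreased members of 44 (3.28% of all start-site regions) and 0 increased (4.88%). These were RRM2 (-0.85, adjusted p = 0.00164), MCM10 (-0.80, adjusted p = 0.0260), GINS2 (-0.66, adjusted p = 0.0378), CDC6 (-0.63, adjusted p = 0.0483) and GMNN (-0.59, adjusted p = 0.0468). The count of 5 fell to 1 without PB replicate 3, PB+RA replicate 1 or PB+RA replicate 2, to 2 without PB replicate 4 and to 3 without any 1 of 6 other libraries (DMSO replicates 1 and 4, PB replicate 2, RA replicates 2 and 4, PB+RA replicate 3), and RRM2 was called each time. The difference between the counts of 12 and 5 was not itself tested, and both comparisons share the PB+RA libraries.

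RRM2 was 0.13, 0.16, -0.19 and 0.64 with PB+RA against 1.30, 1.00, 1.01 and 0.84 with PB, so the groups did not overlap. Over the members, all 4 PB+RA libraries lay below all 4 PB libraries at 6 of 44 start sites (4.1% of all start-site regions) and above them at 1 of 44, ORC6 (6.97%). The median of PB+RA minus PB was -0.24 over the 44, against 0.09 over all start-site regions. It was -0.38 in replicates 1 and 2 and -0.12 in replicates 3 and 4, so the step from PB to PB+RA rested more on the first set. The median of PB+RA minus RA was -0.48, and it was -0.53 and -0.38 in these sets.

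Whether PB made a different change with RA than without it was tested as the interaction of PB and RA. No member was called (limma, 0 of 44, and 0 at an unadjusted p under 0.05). The interaction ranged from -0.47 for CDC6 to 0.48 for ORC6, with a median of 0.06 and SEs from 0.23 to 0.55 (median 0.28). Even at ORC6 the unadjusted p was not under 0.05. Departures from the sum of the single changes of that size, and larger ones after adjustment, could therefore be missed. The smallest unadjusted p was 0.0533, for ORC6.

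At CHAF1B, TYMS, CDT1, GINS2 and POLE, which all decreased with PB+RA, the peak over the start was lower or narrower than in DMSO. These peak values are a description and were not tested. At CHAF1B (region chr21:37756955-37758693, hg19), the peak over the start had a fold enrichment over input of 13.4 to 17.0 in the 4 DMSO libraries, 3.55 to 8.52 in the 3 PB libraries with a peak there, 12.4 to 13.4 in 3 RA libraries and 4.39 to 8.56 in 3 PB+RA libraries. The median width of that peak was 1387 bases in DMSO, 881 with PB and 1367 with RA, and 860 with PB+RA. At TYMS (region chr18:656836-660205) the fold enrichment was 13.0 to 18.8 in DMSO and 6.10 to 7.19 in the 3 PB+RA libraries with a peak over the start.

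At CDT1 (region chr16:88868650-88880820) the median width went from 10737.5 bases in DMSO to 3099 with PB and 5505.5 with RA, and 2236 with PB+RA. At GINS2 (region chr16:85720645-85724685) it went from 2257 to 1228, 1512.5 and 848.5. At POLE (region chr12:133261851-133266922) it went from 4132 to 1885.5, 3057 and 1757. A peak covered the start in 3 of 4 PB libraries at CDT1 and in 3 of 4 PB+RA libraries at POLE, and otherwise in 4 of 4. GINS3 (region chr16:58423361-58428811) had a peak over the start in 4 of 4 libraries of every group, with median widths of 1885.5 bases in DMSO, 1943.5 with PB and 2084.5 with RA, and 2495 with PB+RA. Over all 44 members, the median share of the start-site region under peaks was 60.5% to 84.2% in DMSO libraries, 54.1% to 64.6% with PB, 59.6% to 79.9% with RA and 44.2% to 63.5% with PB+RA.

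**Figure D5:**
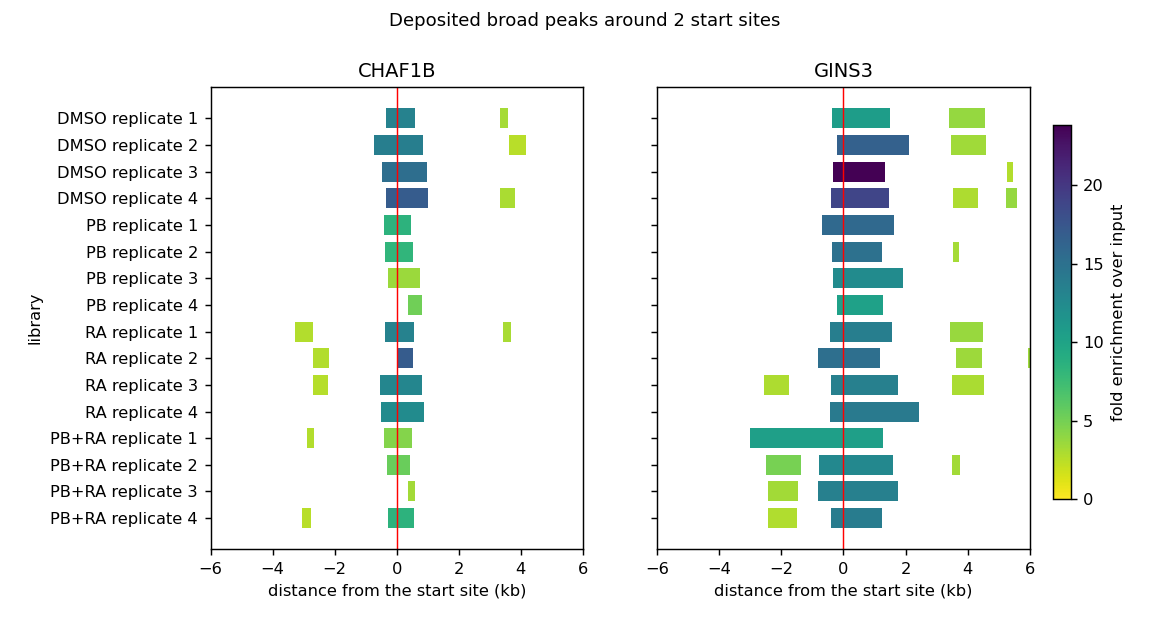
Deposited broad peaks within 6 kb of the start sites of CHAF1B and GINS3 (x axis, distance from the start in kb along the gene's strand) in each of the 16 libraries (y axis), with colour for the fold enrichment over input. At CHAF1B the peaks are paler and shorter in PB and PB+RA than in DMSO, and at GINS3 every library has a peak over the start, with added peaks upstream in several PB+RA libraries.

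Of the 44 members, 14 shared their region with the start of another gene. Those not yet named as shared were MCM2 with TPRA1, MCM4 with PRKDC, PRIM1 with HSD17B6 and LIG1 with ZSWIM9. Of these 14, 5 decreased with PB, 0 with RA (limma, 1 at an unadjusted p under 0.05) and 8 with PB+RA, and of the other 30, 22 decreased with PB+RA. For PB+RA against PB, 0 of the 14 decreased (limma, 1 at an unadjusted p under 0.05), with a median of -0.04. All 5 that decreased there were among the other 30, whose median was -0.31. Beyond the start-site regions, 24 members had further regions, 41 in all. With PB, 0 of these 41 were called (limma, 10 at an unadjusted p under 0.05). Of all 92092 regions, 3.32% decreased and 6.05% increased with PB, and 22472 had an unadjusted p under 0.05. The count of 10 is therefore near the share of all regions. With RA, 1 of 41 increased (10.2% of all regions did), the region at chr19:10334233-10350353 given to DNMT1, by 1.07. With PB+RA, 5 of 41 decreased and 4 increased, which is 12.2% and 9.76%, against 11.3% and 18.3% of all regions. These shares are near and below those of all regions, so they set the further regions apart in neither direction. The 5 were single regions of GINS2 (-0.94), MCM3 (-0.87) and RRM2 (-0.95) and a pair of further regions of TK1 (-1.17 and -0.92).

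For description, the 4 regions that increased with PB+RA were at CDC45 (chr22:19475878-19477795, 1.13, adjusted p = 0.00547), GINS3 (chr16:58433091-58435134, 1.04, adjusted p = 0.0116), PRIM2 (chr6:57168431-57169810, 0.99, adjusted p = 0.0106) and DNMT1 (the same region as with RA, 0.61, adjusted p = 0.0397). They lie 8435, 6716, 12618 and 28604 bases from the canonical starts. Peaks were present there in 11, 11, 3 and 16 of 16 libraries. The PRIM2 region, with a concentration of 1.23 in DMSO, thus held only the value of 1 set outside peaks in most libraries. A region within 10 kb of a start need not act on that gene. The start-site differences of these genes with PB+RA were -0.03, 0.09, -0.39 and -0.63, and of these the DNMT1 start site was called, as decreased.

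Other genes of replication, 42 that were listed beside the 44 (origin firing factors, further polymerase subunits, checkpoint and chromatin factors), were read the same way and all had a start-site region. With PB 12 of 42 decreased and 0 increased, with RA 2 decreased and 1 increased, and with PB+RA 19 decreased and 2 increased. As shares of the 42, the decreases were 28.6%, 4.76% and 45.2%, against 10.7%, 4.18% and 18.3% of all start-site regions, so the share with RA was near that of all start-site regions. The increases were 2.38% with RA and 4.76% with PB+RA, against 4.66% and 8.17%. The median differences were -0.37, -0.26 and -0.51. The smallest adjusted p with PB+RA belonged to TICRR, which helps origins to fire (-1.69, SE 0.19, adjusted p = 3.02e-07), PCLAF, a partner of PCNA (-1.76, SE 0.26, adjusted p = 1.04e-05), and ASF1B, a histone chaperone (-1.12, SE 0.18, adjusted p = 2.78e-05). Chosen after their values were seen, RPA3, the small subunit of replication protein A (1.08, adjusted p = 2.50e-04), and ORC4, an origin recognition subunit (0.52, adjusted p = 0.0408), were the pair that increased with PB+RA. Of 17 housekeeping genes, 2 decreased with PB, 0 with RA (limma, 1 at an unadjusted p under 0.05) and 4 with PB+RA, and 0 increased, with medians of -0.19, -0.16 and -0.15. The housekeeping decreases, 11.8% with PB and 23.5% with PB+RA, were near the shares of all start-site regions.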

How the data were processed

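H3K27ac ChIP-seq of 16 libraries (4 groups of 4) was used, each with an input. Per the submitters' processing notes, the authors used fastp 0.12.4 for trimming and Bowtie2 2.4.4 for alignment to hg19, and called broad peaks per library against input with MACS2 2.2.7.1, while the methods also name trimGalore and give another Bowtie2 release. The deposited peak lists give a fold enrichment over input, which is a ratio, and a -log10 q value. The deposited region tables give the authors' log2 mean concentration of each group from DiffBind 3.4 over 92108 regions, with libraries pooled by group, and its normalization method is not given in the sources used here. Their columns of the authors' own fold changes and p-values were not used.

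For each library, the mean fold enrichment over a region was taken with bases outside peaks at 1, as log2, minus the median of the 26499 regions with a peak in all 16 libraries. This measure sees signal only inside called peaks, so a fall below the calling limit counts as background. Groups were compared with limma 3.58.1 (R 4.3.3; trend and robust) in 1 fit of 16 libraries over the 92092 regions on reference chromosomes, with Benjamini-Hochberg adjustment and two-sided tests, at an adjusted p under 0.05 and a log2 difference beyond 0.5, the thresholds of the study. Tested on data simulated for PB against DMSO over 92092 regions, the fit recovered 95 of 100 regions changed by 1.5 (log2) and 40 of 100 changed by 1, and called 5 unchanged regions. The simulated noise was independent between libraries, without the difference of replicates 1 and 2 from 3 and 4. Far fewer regions were changed than were called in the real data, so these figures need not hold there. No block was fitted, except as an alternative. Between same-numbered libraries, the correlation of deviations was over 0.1 in 4 of 4 pairs of DMSO with RA (0.151 to 0.349). The same held for PB with PB+RA (0.110 to 0.476). The correlation was over 0.1 in 1 of 4 pairs of DMSO with PB, 2 of 4 of DMSO with PB+RA and 3 of 4 of RA with PB+RA. Libraries of unlike number correlated from -0.49 to 0.51, the highest for PB replicate 4 with PB+RA replicate 3. No label ties the numbers, so the same number was not shown to mean a pair. The interaction was called by adjusted p alone. Concentrations have no replicate values and were not tested.

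Full values were given for the 6 called members of smallest adjusted p in PB+RA against DMSO, the 3 whose concentration fell least, and the largest and smallest fall in each role. Further members were named where a count or comparison turned on them. Promoters were read from GRCh37 with pysam 0.24.0, and starts from the GENCODE annotation. The members and lists were chosen with earlier results of these data known. P-values measure the spread between these libraries of 1 cell line. Alternatives covered the scaling, the value outside peaks, stricter peaks, filters, the fold minimum, the choice of region, the block and leaving out each library.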

Additional observations from a re-analysis of the deposited data

Results flagged for a closer look

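In 7 of 72 groups of 4 libraries, made of the 17 members given in full and the median over all 44 members, each in 4 treatment groups, 1 library lay far from the other 3, and chance alone flags about 1 in 20 such groups. Relative enrichment was low at TYMS in PB+RA replicate 3 (-0.58), at CDT1 in DMSO replicate 4 (1.31) and in RA replicate 2 (1.02), and at RFC3 in DMSO replicate 4 (0.80). It was high at CDC45 in PB+RA replicate 3 (1.61), at PCNA in DMSO replicate 3 (1.72) and at RPA1 in PB replicate 3 (0.16). For CDT1 in DMSO and RA and for RPA1 in PB, the other 3 libraries stood close together, so a small gap was enough. PCNA in DMSO replicate 3 is the library with the fewest peaks.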

How the results depend on the processing

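The 30 members decreased with PB+RA became 11 with a difference beyond 1 and 11 where only peaks covering at least 50% of the region counted, and 24 to 33 when 1 library was left out. Of all start-site regions, 4.51% decreased with peaks over 50% of the region, and 14.6% to 20.5% with 1 library left out. The 13 decreased with PB became 7 (centring on start-site regions), 6 (peaks with -log10 q of at least 5), 4 (peaks over 50% of the region) and 3 (difference beyond 1), and 9 to 16 without 1 library. The shares of all start-site regions in the first 3 of these settings were 5.58%, 7.51% and 1.48%, and 6.58% to 13.1% without 1 library. The 2 decreased with RA became 1 with no centring, quantile normalization, bases outside peaks at 0, the strongest peak or peaks over 50% of the region, 0 with GC classes, start-site centring, -log10 q of at least 5 or a difference beyond 1, and 0 to 2 without 1 library. Of all 92092 regions, 716 to 7621 decreased with RA in the settings with 1 member. In the first 3 settings with 0 members the range was 1977 to 5968, and without 1 library 4050 to 5948. The 12 decreased in PB+RA against RA became 7 (strongest peak), 1 (peaks over 50% of the region) and 5 (difference beyond 1), and 8 to 15 without 1 library. Of all 92092 regions, 3020 decreased with the strongest peak, 287 with peaks over 50% of the region and 2566 to 5429 without 1 library. For the counts at a difference beyond 1, in every comparison, no share over other regions is given here. The 5 decreased in PB+RA against PB became 8 (quantile), 3 (GC classes, bases outside peaks at 0, strongest peak), 1 (no centring, -log10 q of at least 5, peaks over 50% of the region) and 0 (difference beyond 1), and 1 to 5 without 1 library. In the order named, start-site shares were 5.18% (quantile), 3.38%, 3.26% and 1.60% (settings with 3 members), and 1.69%, 2.44% and 0.813% (settings with 1). Taking each gene's region of highest concentration gave 1 increased member with RA and 1 with PB+RA. The interaction stayed at 0 in every fit.

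Of 24 same-numbered pairs of libraries, 18 had a correlation over 0.1, and 10 of 16 libraries correlated best with their own number, a hint from the data only. Pairs of unlike number ranged from -0.49 to 0.51, so pairing by number was not shown. In 3 of the 5 comparisons at least 1 pair was at or under 0.1. With the replicate block the decreased members were 18 (PB), 4 (RA), 31 (PB+RA), 19 (against RA) and 5 (against PB). The block's start-site shares were 15.7% (PB), 21.4% (PB+RA) and 4.38% (against PB), and the others are given above. A term for libraries 1 and 2 against 3 and 4, chosen after seeing the data, gave the same 5 counts. Its start-site shares were 17.0% (PB), 21.9% (PB+RA) and 4.54% (against PB).

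CDT1, CHAF1B, GMNN, POLE, RRM2 and TYMS kept the PB+RA call in every fit, and MCM3 lost it in 12 settings. Values that turned to a rise with PB+RA were MCM5 0.12 (strongest peak), PCNA 0.26 and DNMT1 0.61 (region of highest concentration) and DNMT1 0.34 (peaks over 50% of the region), and against RA GINS2 0.31 and UHRF1 0.31 (peaks over 50% of the region). The PCNA 0.26 and DNMT1 0.61 are values of other regions, 5654 and 28604 bases from the canonical starts, and not of the start-site regions. The median of all regions with PB moved from 0.12 to 0.36 under start-site centring, where 5.58% of start-site regions decreased and 5.69% increased with PB. The cause was not tested, except that a larger minimum or fewer peaks leaves fewer calls by construction. Read depth is unknown, and peak lists hold no signal below the calling limit.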
